A study of Mus musculus with 16 samples.

Results

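Neutrophils from the lungs of αD KO and WT mice were compared 12 hours after CLP (cecal ligation and puncture), a surgery that lets bowel bacteria into the abdomen and causes sepsis. The libraries were chosen by their labels, lung as the tissue and cecal ligation at 12 hours as the treatment, with earlier results of these data known. This choice gave 6 of the 24 libraries and 4 of the 16 samples of the series. The αD KO mice (aD KO in the labels) carry a targeted Itgad gene in every cell, and the WT mice were the controls. Both strains came from a commercial breeder, and no source used here says that they were littermates. The mice that had CLP were males of 8 to 12 weeks, and both groups had the surgery. Cells were sorted as positive for Ly6G, CD11b and CD45.2. Lung libraries of untreated mice of both genotypes (0h) and the blood libraries serve below as references. Each group has 2 samples but 3 count files. Here 1a and 1b stand for the libraries from the pair of files of sample 1, and 2 for the library of sample 2. The column inside file 1b carries the same name as that inside file 1a, but their counts differed far beyond sampling noise (chi-square divided by its degrees of freedom, 283 in αD KO and 565 in WT), so each file was taken as a library. Libraries 1a and 2, which come from different samples, differed less by the same measure (69.5 in αD KO and 142 in WT). The study describes its RNA sequencing as triplicates. Whether 1a and 1b are different animals is not given in the sources used here, so that p-values measure the spread between these libraries, which may be partly technical. Total counts were 16565779, 11601976 and 29984954 in αD KO libraries 1a, 1b and 2, and 25465567, 10628463 and 28488406 in WT.

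Neutrophils are short-lived white cells that leave the bone marrow, circulate in the blood and gather in the small vessels of the lung during sepsis. On contact with bacterial products or cytokines they switch on chemokines, acute phase proteins and survival genes through NF-kB and STAT3. The β2 integrins are pairs of CD18 (gene Itgb2) with 1 of 4 α chains, αL (Itgal), αM (Itgam), αX (Itgax) or αD (Itgad), and let leukocytes hold on to vessel walls, to matrix and to opsonized bacteria. The comparison asks what the loss of αD does to gene expression of lung neutrophils in sepsis.

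Itgad, the targeted gene (chromosome 7, 128154376 to 128223816, GRCm38), went against the KO label. Libraries 1a, 1b and 2 had 82.7, 14.1 and 102 CPM with the αD KO label and 0.211, 0.881 and 0.232 CPM with the WT label, as read counts scaled to library size with TMM factors (CPM, the unit of every level below, always in the order 1a, 1b and 2). Where values of both genotypes follow each other below, those of αD KO come first. The means were 66.2 ± 46.1 CPM (SD, n = 3) and 0.442 ± 0.381 CPM (SD, n = 3), and the groups did not overlap (log2 fold change 7.28, SE 1.02, SE being the standard error). The counts are per gene and not per exon, so a transcript from the disrupted allele cannot be told apart from an intact one, and neither from exchanged labels, which would turn the sign of every difference between αD KO and WT given here. The genotype is therefore given below as the label of the library. In untreated lungs, Itgad was 51.8, 68 and 17.7 CPM with the αD KO label against 1.35, 3.66 and 1.74 CPM with the WT label, which is higher in αD KO in 3 of 3 libraries as well. Within the libraries labelled αD KO at 12 hours, library 1b had the lowest Itgad level.

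**Figure D1:**
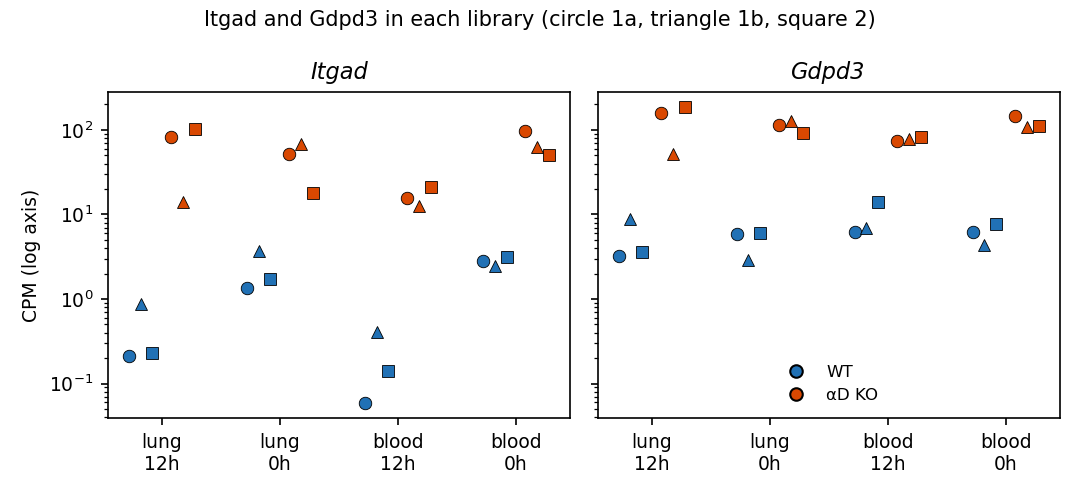
Levels of Itgad and of its neighbour Gdpd3 in each library (CPM, log axis) in lung and blood at 12h and 0h, WT in blue and αD KO in orange. Circles are libraries 1a, triangles 1b and squares 2. In each of the 4 settings every αD KO library lies above every WT library for both genes, and αD KO library 1b is the lowest αD KO library of lung 12h, at 14.1 CPM for Itgad and 51.9 CPM for Gdpd3.

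The other chains of the family differed less. Itgal was 813, 427 and 1215 CPM in αD KO against 185, 342 and 402 CPM in WT, without overlap (log2 fold change 1.505, SE 0.53). Itgam was 337, 411 and 349.6 CPM in αD KO against 979, 604 and 1396 CPM in WT, again without overlap but lower in αD KO (log2 fold change −1.21, SE 0.42). In both genes αD KO library 1b was the αD KO library nearest to WT. Itgax, at 161, 11.9 and 207 CPM and 11.8, 6.81 and 44.8 CPM, overlapped because αD KO library 1b fell within the WT range. Itgb2, at 1564, 1501 and 2225 CPM and 2813, 1540.4 and 2976 CPM, overlapped too, and its difference was within the error (log2 fold change −0.27, SE 0.42). By edgeR's quasi-likelihood test the adjusted p was 0.598 for Itgad, Itgal, Itgam and Itgax and 0.898 for Itgb2, and DESeq2 gave an adjusted p of 3.65e-13 for Itgad, 0.232 for Itgal, 0.157 for Itgam, 0.122 for Itgax and 0.806 for Itgb2.

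The sorted cells had the defining transcripts of neutrophils. S100a8, a calcium-binding alarmin, was 17305, 39581 and 16701 CPM in αD KO against 29114, 66952 and 33320.1 CPM in WT, and Ly6g, which encodes the sort marker, was 80.6, 133 and 171 CPM and 108, 467 and 275 CPM. Markers of other cells differed between libraries. The summed level of 17 B cell genes was 594, 72.8 and 569 CPM in αD KO against 38.1, 56.7 and 113 CPM in WT, while untreated WT libraries had 905, 518 and 662 CPM. Ighm (immunoglobulin μ chain) alone made up 482, 34 and 488 CPM of the αD KO sums, and no more than 2 of the 17 genes had 0 counts in any of the 6 libraries. The 9 erythroid genes measured summed to 1525, 601 and 3151 CPM in αD KO against 185, 1285 and 715 CPM in WT, and the 23 lung structural genes to 274, 89.5 and 344 CPM in αD KO against 228, 457 and 469.5 CPM in WT. The 17 monocyte and macrophage genes summed to 1740.1, 4536 and 2054 CPM in αD KO against 8065, 4831 and 9651 CPM in WT, so that every αD KO library was below every WT library, and to 1299, 817 and 1422 CPM in untreated WT. Chil3, which neutrophils also express, alone gave 624, 3839 and 775 CPM against 7247, 3773 and 8945 CPM of it. Of the 15 members tested, 12 had a log2 fold change above 0, with a median of 1.00, beside 9488 of all 16764 genes tested above 0. The 11 genes of eosinophils, basophils and mast cells summed to 64.2, 15.1 and 95.1 CPM in αD KO against 6.41, 25.8 and 11.3 CPM in WT, and to 126, 66.9 and 88.1 CPM in untreated WT. The 9 MHC class II genes summed to 239, 42.6 and 334 CPM in αD KO against 286, 25.2 and 365 CPM in WT, and 8 of the 9 had a log2 fold change above 0. The 12 platelet genes summed to 106, 16 and 37.8 CPM against 107, 27.4 and 43.9 CPM. T and NK cell genes stayed between 14.9 and 30.1 CPM in all 6 libraries. The part of these transcripts in the results below was not tested, and fewer cells of a type cannot be told apart from less RNA per cell in such bulk samples. Libraries 1b had more genes with counts (36740 in αD KO and 35731 in WT) than the other 4 libraries (22405 to 31892). This was not particular to lung at 12 hours. In every group of the series, library 1b had the most genes with counts and the lowest total counts of its group. Counts of genes that edgeR called between the genotypes in lung at 12 hours are given with and without the libraries 1b.

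Each lung library was placed on a time axis of WT lung neutrophils, from the WT mean at 0h (position 0) to the WT mean at 12 hours (position 1). The axis rests on 1340 genes that edgeR called between these WT groups, 778 higher at 12 hours (5.24% of 14859 genes tested) and 562 lower (3.78%), where a call (DEG) needs an adjusted p under 0.05 and a log2 fold change beyond 1. The libraries labelled αD KO at 12 hours lay at 0.0994, 0.826 and 0.188. Those of WT at 12 hours, each left out of its own mean, lay at 1.21, 0.661 and 1.05, and those of WT at 0h at −0.0407, 0.108 and −0.0244. The untreated αD KO libraries lay at 0.153, 0.0973 and 1.03, so that library 2 of this reference group stood apart from its label, and it enters below where αD KO values at 0h are given, in the search over 4 settings and in the fit with all 8 groups. Among the libraries of 12 hours, αD KO libraries 1a and 2 lay next to the untreated WT libraries, and αD KO library 1b lay between the WT libraries of 12 hours. Of the 778 genes higher at 12 hours, 3.6% were nearer to the WT 12h level than to the WT 0h level in αD KO library 1a, 69.7% in library 1b and 21.5% in library 2. Of the 562 lower genes, the shares were 1.07%, 96.4% and 4.8%. WT library 1b stood apart within its own group, with 53.9% of the higher genes but 99.8% of the lower genes nearer to the 12h level, while WT libraries 1a and 2 had at least 95.6% of both. On an axis of 1975 genes from WT blood neutrophils, which no lung library entered, the αD KO libraries lay at 0.094, 0.726 and 0.18 and the WT libraries at 0.851, 0.706 and 0.752. The αD KO blood libraries at 12 hours lay together on that axis, at 0.9, 0.935 and 0.948.

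**Figure D2:**
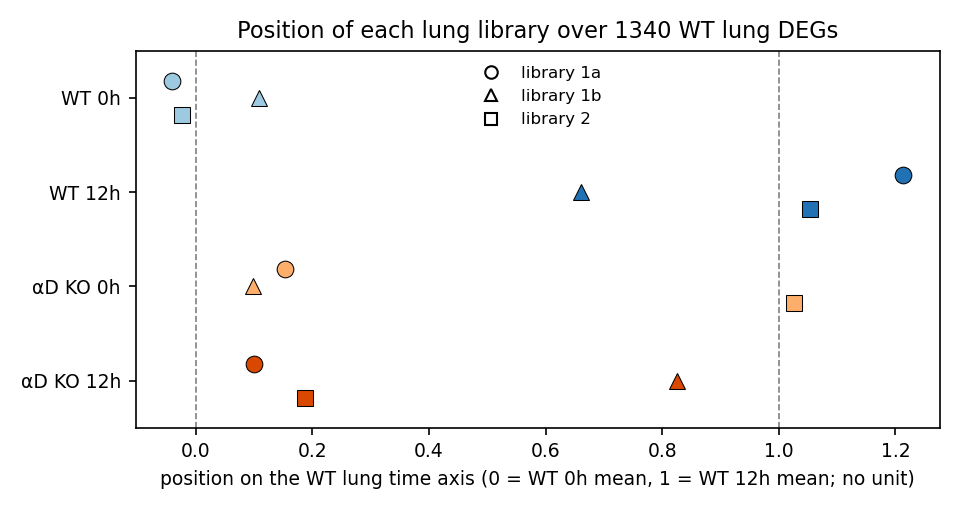
Position of each of the 12 lung libraries on the WT lung time axis over 1340 genes (horizontal axis, no unit, with 0 the WT mean at 0h and 1 the WT mean at 12h). Each point is a library, with shapes for 1a, 1b and 2. At 12h, αD KO libraries 1a and 2 lie at 0.0994 and 0.188, and αD KO library 1b lies at 0.826.

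Over all genes, edgeR called 0 of 16764 genes (0%) between αD KO and WT, with a smallest adjusted p of 0.598. At an unadjusted p under 0.05, 704 genes were higher in αD KO (4.2%) and 686 lower (4.09%). Every named gene below at an unadjusted p under 0.05 had an adjusted p of 0.598 by edgeR's quasi-likelihood test. DESeq2, the tool of the study, called 56 genes higher (0.444% of the 12611 genes with an adjusted p) and 85 lower (0.674%). Of the 56, αD KO libraries 1a and 2 were above every WT library in 56, and library 1b in 24. Of the 85, libraries 1a and 2 were below every WT library in 65 and 62, and library 1b in 38. The number of DEGs depended on the libraries 1b. Without those of both groups, which sets αD KO libraries 1a and 2 against WT libraries 1a and 2, edgeR called 2373 genes higher (15.2% of 15574) and 2313 lower (14.9%). Without WT library 1b alone it called 31 and 178, without αD KO library 1b alone 7 and 1, and without any other single library 0 and 0. With αD KO library 1b as the only αD KO library against the 3 WT libraries it called 0, where the lone library is assumed to vary like the WT libraries. Over the 3 libraries of each group, 759 genes (4.53%) had every αD KO library above every WT library and 919 (5.48%) every αD KO library below, called apart below.

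**Figure D3:**
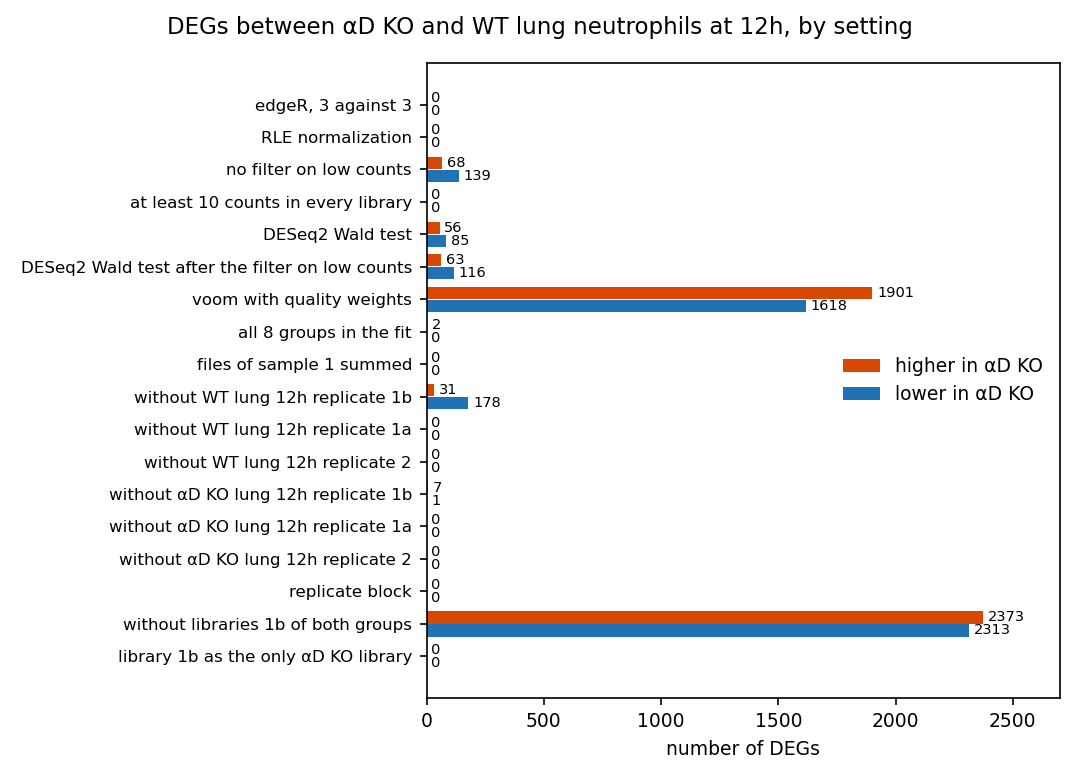
Number of DEGs (adjusted p under 0.05 and log2 fold change beyond 1, horizontal axis) between the genotypes in lung at 12h under each setting, higher in αD KO in orange and lower in blue. The count is 0 in both directions with edgeR on all 6 libraries, and reaches 2373 higher and 2313 lower without the libraries 1b of both groups.

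Pathways were therefore described library by library. The counts of list members below stand beside the shares over all genes, 4.53% apart higher and 5.48% apart lower, 4.2% higher and 4.09% lower at an unadjusted p under 0.05, and 15.2% and 14.9% called without the libraries 1b. A log2 fold change above 0 was found in 9488 of the 16764 genes tested. After RLE normalization the counts apart moved by at most 1 gene in either direction, except in the lists where both counts are given. For each gene list, the same position was computed over its members with a WT difference of at least 1 on the log2 scale between 0h and 12h. In all 14 pathway lists αD KO libraries 1a and 2 lay at 0.347 or less. αD KO library 1b lay from 0.288 for cell cycle arrest and p53 genes to 1.03 for phagocytosis receptors and oxidase genes. WT libraries 1a and 2 lay at 0.828 or more in every list, and WT library 1b varied from −0.0648 to 1.08. All 3 WT libraries entered the choice of the genes, which partly sets the WT positions and their distance from the αD KO libraries, and no list was placed on an axis chosen without them. The order of αD KO and WT library 1b also varied by list, with αD KO 1b further along in 13 of the lists and WT 1b in the interferon list.

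**Figure D4:**
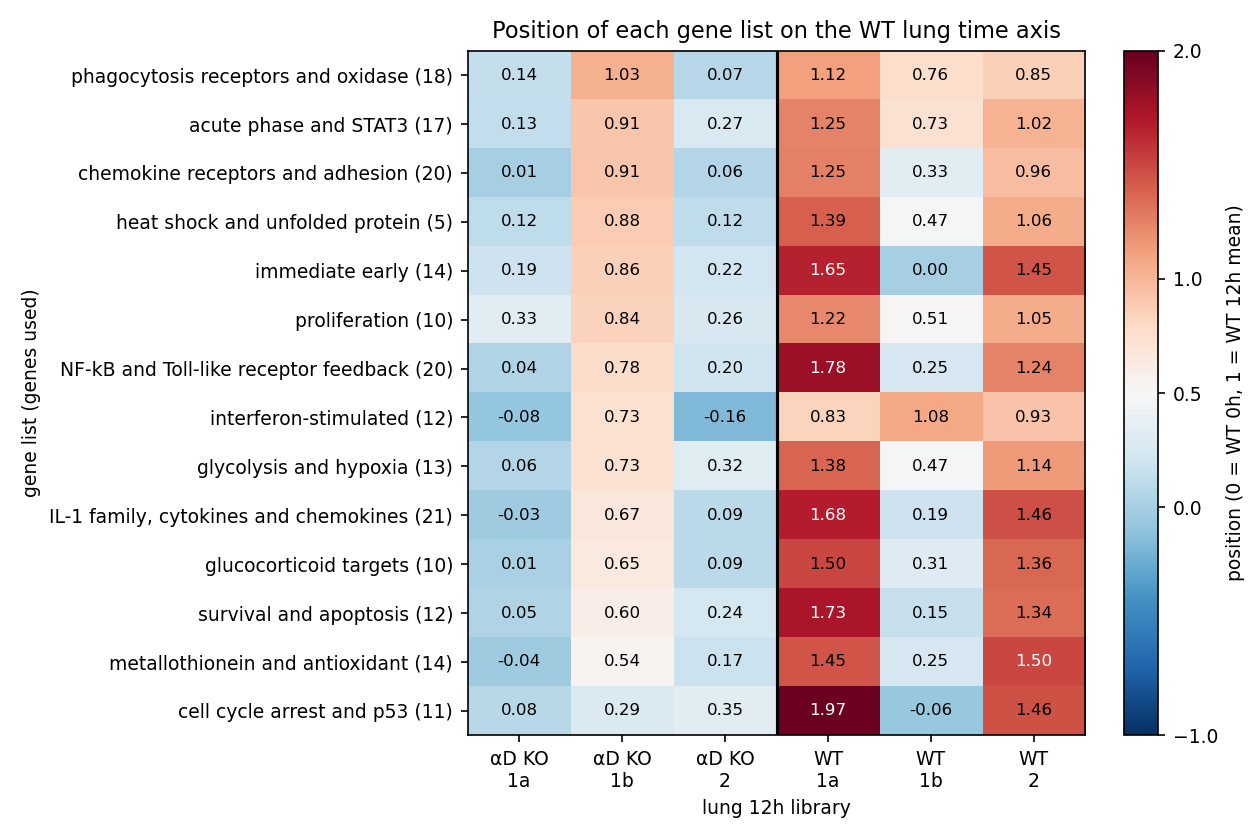
Position of 14 gene lists on the WT lung time axis (colour and printed value, no unit, 0 the WT mean at 0h and 1 the WT mean at 12h) in the 3 αD KO and the 3 WT lung libraries of 12h, with the number of genes used in brackets. Lists are ordered by αD KO library 1b, from 1.03 for phagocytosis receptors and oxidase to 0.288 for cell cycle arrest and p53.

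Cytokine and chemokine genes separated libraries of the same label. Of the 21 genes of the list with a WT difference, 0 were nearer to the WT 12h level in αD KO library 1a, 15 in library 1b and 3 in library 2, against 20, 4 and 21 in WT. Cxcl2, which encodes a chemokine that draws neutrophils through CXCR2, was 1029, 6862 and 1745 CPM in αD KO against 23756, 1658 and 21628 CPM in WT. αD KO library 1b was thus the highest of its group but below WT libraries 1a and 2, and WT library 1b fell within the αD KO range. Cxcl3, which encodes a chemokine of the same receptor, was 10.1, 242 and 20.5 CPM and 2744, 50.2 and 2669 CPM. Cxcl1 was 0.662, 6.67 and 1.07 CPM in αD KO against 291, 5.45 and 408 CPM in WT, so that the libraries 1b of both groups lay close together (log2 fold change −5.98, SE 1.57). Il10, which encodes a cytokine that restrains inflammation, was 0.441, 7.84 and 0.355 CPM and 287, 3.2 and 85.1 CPM. In WT lung, Cxcl1, Cxcl2, Cxcl3 and Il10 were DEGs that rose from 0h to 12h. Il1b did not follow them. It was 14057, 8688 and 21503 CPM in αD KO against 13949.6, 1439 and 19802 CPM in WT, and WT library 1b was the lowest of the 6. Il1r2, the decoy receptor of interleukin-1, was 697, 1980.2 and 1041 CPM and 13744, 1340.4 and 13553 CPM (log2 fold change −2.60, SE 0.86). Over the 31 genes tested, 1 was apart higher and 3 lower (beside 4.53% and 5.48% of all genes, and 1 and 1 after RLE normalization), 2 and 9 had an unadjusted p under 0.05 (beside 4.2% and 4.09%), and the median log2 fold change was −1.27, beside 0.13 over all genes. Without the libraries 1b, 1 was a DEG higher in αD KO and 20 were DEGs lower (beside 15.2% and 14.9% of all genes), and the median was −2.17.

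The promoters of the 3 chemokine genes and of Nfkbia, the inhibitor of NF-kB that NF-kB itself switches on, are given as examples of named genes that held the NF-kB core. These genes were lower in αD KO libraries 1a and 2 than in WT libraries 1a and 2. Each line gives the 200 bases before the RefSeq start of the gene (GRCm38.p6), 5′ to 3′ on the strand of the gene, with matches to the NF-kB core, GGGA and TTCC with any 2 bases between them, or to its reverse complement, GGAA and TCCC with any 2 bases between them, in capitals. In the 3 chemokine genes the matches on the 2 strands overlap.
Cxcl1, chr5:90891045-90891244, plus strand: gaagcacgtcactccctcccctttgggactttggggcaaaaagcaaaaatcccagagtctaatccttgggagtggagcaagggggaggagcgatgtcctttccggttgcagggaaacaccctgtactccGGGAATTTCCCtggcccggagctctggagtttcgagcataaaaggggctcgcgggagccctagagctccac
Cxcl2, chr5:90903699-90903898, plus strand: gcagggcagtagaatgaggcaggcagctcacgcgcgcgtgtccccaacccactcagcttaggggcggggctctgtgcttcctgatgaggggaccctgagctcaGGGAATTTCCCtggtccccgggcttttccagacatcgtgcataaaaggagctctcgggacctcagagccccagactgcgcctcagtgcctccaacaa
Cxcl3, chr5:90785901-90786100, plus strand: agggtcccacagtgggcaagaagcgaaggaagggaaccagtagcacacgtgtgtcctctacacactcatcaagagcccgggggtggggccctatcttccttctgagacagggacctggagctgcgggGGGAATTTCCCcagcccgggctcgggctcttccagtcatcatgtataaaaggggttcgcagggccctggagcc
Nfkbia, chr12:55492648-55492847, minus strand: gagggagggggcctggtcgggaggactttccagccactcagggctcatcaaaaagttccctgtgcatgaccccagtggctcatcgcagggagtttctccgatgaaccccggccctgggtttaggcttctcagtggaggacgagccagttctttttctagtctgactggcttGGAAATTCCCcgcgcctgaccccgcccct
Shares were counted over a longer stretch before the start than the one printed, and over every RefSeq promoter of a gene. By this count 5 of the 24 cytokine list genes in the RefSeq table held the core (20.8%). It was found in 2 of 22 genes of the NF-kB and Toll-like receptor list (9.09%), beside 368 of 27025 genes (1.36%). It was also found in 3 of 30 genes of the interferon list (10%). Csf3r and Ccr3 were further named genes that held it within the 200 bases before the start. Csf3r went the other way from the genes printed, at 9390.1 and 13799.9 CPM in αD KO libraries 1a and 2 against 3671 and 3656 CPM in WT libraries 1a and 2. A match describes the letters and is not a measured binding site.

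Genes of NF-kB and Toll-like receptor feedback were described in the same way. Of 20 genes, 0, 18 and 3 were nearer to the WT 12h level in αD KO libraries 1a, 1b and 2, and 20, 2 and 20 in WT. Nfkbia was 659, 1983 and 1909.6 CPM in αD KO against 9325, 830.0 and 10926 CPM in WT, so that αD KO library 2 was close to library 1b and WT library 1b fell within the αD KO range. Cd14, the co-receptor for lipopolysaccharide, was 478, 3711 and 1791 CPM and 14750.2, 1254 and 15437 CPM. Traf1, an adaptor of the TNF receptors, was 12.3, 170.4 and 20.1 CPM and 1614, 36.8 and 1115 CPM (log2 fold change −3.34, SE 1.41). Ikbke, a kinase of the innate response, was 6.12, 887 and 13.8 CPM in αD KO against 2695, 312 and 1716 CPM in WT, with only library 1b of αD KO inside the WT range. Tlr1, a receptor for bacterial lipopeptides, was apart at 7.67, 16 and 17 CPM and 37.3, 33.9 and 28.9 CPM (log2 fold change −1.13, SE 0.43). In the list of 28 genes tested, 0 were apart higher and 1 lower, 1 and 3 had an unadjusted p under 0.05, and the median log2 fold change was −1.33. With the libraries 1b left out, 1 was a DEG higher and 20 were DEGs lower (beside 15.2% and 14.9% of all genes).

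Acute phase genes under STAT3 were near the WT 12h level in the libraries 1b of both groups, at 0.914 on the axis in αD KO and 0.728 in WT. Saa3 (serum amyloid A3) was 1.82, 315 and 2.8 CPM in αD KO against 1579, 169.8 and 474 CPM in WT, and had been 0.488, 0.361 and 1.21 CPM in untreated WT. Orm1, the acid glycoprotein orosomucoid, was 3.75, 188 and 4.62 CPM and 1782, 105 and 849 CPM. Lcn2, the iron-binding granule protein lipocalin, was 1092, 14195 and 2918 CPM and 33012, 14146 and 38905 CPM. In these 3 genes αD KO library 1b was within the WT range, and αD KO libraries 1a and 2 were below every WT library. Lipg, endothelial lipase, had the same pattern at 2.15, 611 and 3.59 CPM and 763, 260.4 and 323 CPM. Of 17 genes with a WT difference, 0, 15 and 6 were nearer to the WT 12h level in αD KO libraries 1a, 1b and 2, and 17, 11 and 17 in WT. None of the 22 genes tested was apart, 1 was higher and 1 lower at an unadjusted p under 0.05, and the median log2 fold change was −0.81. In the fit without the libraries 1b, 2 were DEGs higher and 13 lower (beside 15.2% and 14.9% of all genes).

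**Figure D5:**
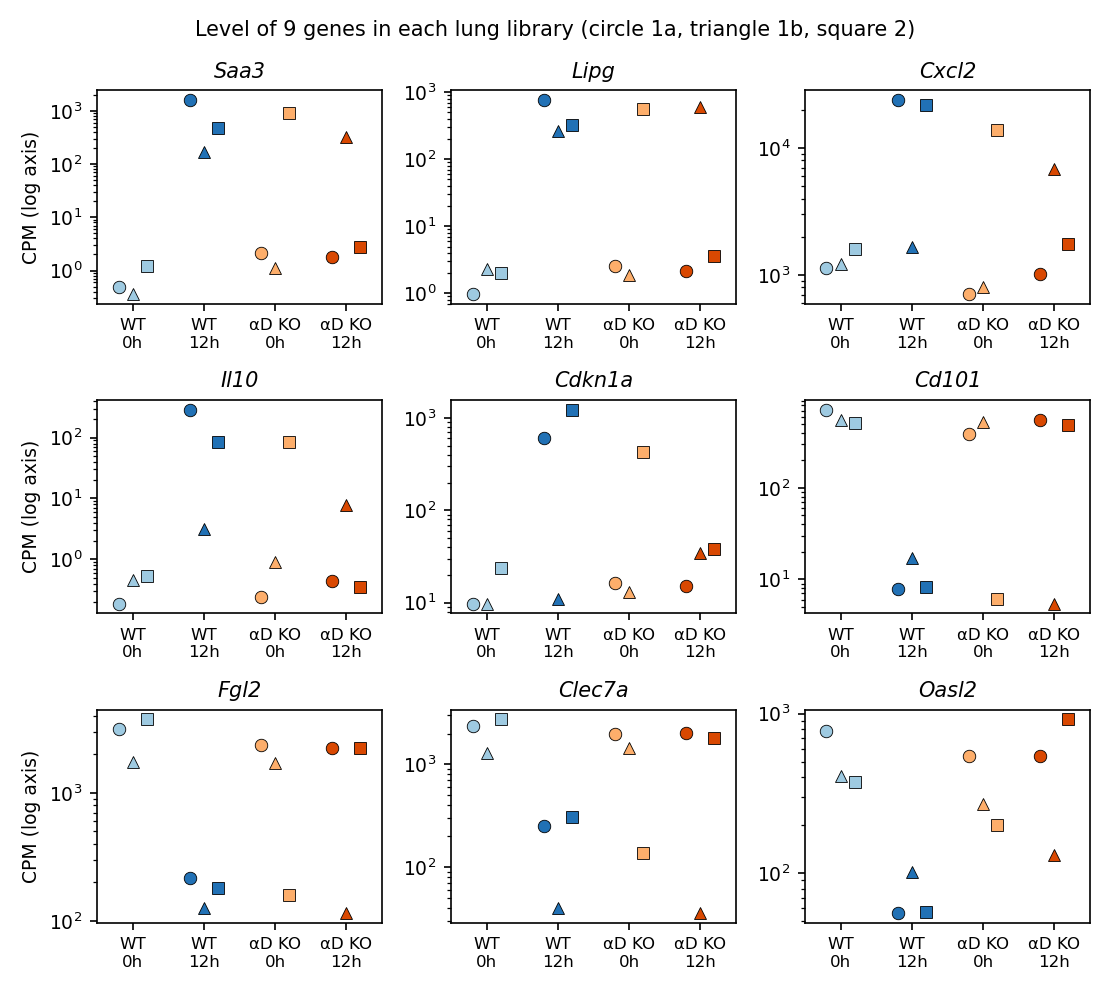
Levels of 9 genes in each lung library (CPM, log axis), WT and αD KO at 0h and 12h, with circles for library 1a, triangles for 1b and squares for 2. For Saa3 and Lipg the αD KO 12h library 1b (315 and 611 CPM) is near the WT 12h libraries while 1a and 2 are near the WT 0h libraries, and for Cd101, Fgl2 and Clec7a the same holds in the other direction.

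Of 20 metallothionein and antioxidant genes tested, 1 had a log2 fold change above 0, 3 were apart lower, 8 had an unadjusted p under 0.05, and the median was −1.24. Without the libraries 1b, 0 were DEGs higher and 13 lower. Mt1, a zinc-binding metallothionein, was 2.43, 20.1 and 4.98 CPM in αD KO against 1080.5, 7.85 and 497 CPM in WT, and Mt2 was 0.0552, 2.27 and 0.118 CPM and 56.8, 0.721 and 34.1 CPM. For both, the levels in the libraries 1b of the 2 groups lay close together and far below WT libraries 1a and 2. Srxn1, a sulfiredoxin of the oxidant response, was 5.68, 10.5 and 12.9 CPM and 74.2, 10.3 and 218 CPM (log2 fold change −3.06, SE 0.89). Fth1, the ferritin heavy chain, was 4752, 10051 and 7939 CPM in αD KO against 49881, 7348 and 34176 CPM in WT. Ftl1, the light chain, was 7512, 2669.7 and 12342 CPM and 16061, 2987 and 27057 CPM, lowest in both libraries 1b. αD KO library 1b had 5 of 14 genes nearer to the WT 12h level, fewer than for acute phase genes, and WT library 1b had 3.

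Among 16 glucocorticoid targets tested, 0 were apart higher and 1 lower, 1 and 6 had an unadjusted p under 0.05, and the median was −0.70. With the libraries 1b left out, 1 was a DEG higher and 8 were DEGs lower. Klf9, a transcription factor that the glucocorticoid receptor switches on, was the gene apart, at 3.25, 17 and 5.69 CPM in αD KO against 139.6, 22.1 and 166 CPM in WT libraries (log2 fold change −3.29, SE 0.87). Ddit4, a stress inhibitor of mTOR, was 1.32, 4.12 and 1.11 CPM and 24, 3.2 and 27.7 CPM. Dusp1, a MAP kinase phosphatase, was abundant in all libraries and did not separate them, at 9484, 7877 and 24247 CPM and 19896, 3847 and 26629 CPM. Of 28 genes of glycolysis and hypoxia, 0 were apart higher and 7 lower (beside 4.53% and 5.48% of all genes), which became 0 and 4 after RLE normalization, while the median was −0.27. In the fit without the libraries 1b, 5 were DEGs higher and 6 lower. Gapdh was 735, 1421 and 1637 CPM in αD KO against 1994, 2418 and 3387 CPM in WT, and Hk1, a hexokinase, was 51.2, 103 and 73.9 CPM and 289, 115 and 244 CPM (log2 fold change −1.25, SE 0.45). Hif1a, the hypoxia factor, was 82.8, 163 and 93.9 CPM and 1259, 108 and 432 CPM, with WT library 1b inside the αD KO range. Pfkfb3, which drives glycolytic flux, was 57.1, 238 and 84.6 CPM and 1352, 125 and 834 CPM. Bnip3, a mitophagy receptor, was 142, 10.9 and 91.8 CPM in αD KO against 28.1, 21.4 and 39.2 CPM in WT, above every WT library in αD KO libraries 1a and 2 and below every one in library 1b.

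On the axis, 14 immediate early genes put αD KO library 1b at 0.86 and WT library 1b at 0.00464, while the untreated WT libraries spread from −0.307 to 0.334. Fosl1, an AP-1 subunit, was 2.26, 54.2 and 3.67 CPM in αD KO against 473, 6.89 and 302 CPM in WT, and Ier3, a stress gene, was 162, 594 and 159 CPM and 2386, 125 and 2062 CPM. Junb, at 3670.0, 1850.4 and 6543 CPM and 5203, 1005 and 5620.2 CPM, was highest in αD KO library 2. Hspa5, the main chaperone of the endoplasmic reticulum, was 436, 542 and 575 CPM and 1550.4, 229 and 1928 CPM. Chac1, an enzyme that breaks down glutathione, was 62.8, 1.44 and 86.1 CPM in αD KO against 1.97, 2.4 and 3.25 CPM in WT libraries (log2 fold change 4.39, SE 1.16), and αD KO library 1b alone gave the opposite sign (−0.53). None of the 28 immediate early genes tested was apart, and of 26 heat shock and unfolded protein genes 0 were apart higher and 2 lower. Without the libraries 1b, 3 immediate early genes were DEGs higher and 12 lower, and 1 heat shock or unfolded protein gene was a DEG higher and 6 were lower (beside 15.2% and 14.9% of all genes).

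Genes of phagocytosis and the oxidase had members in both directions. Of 46 genes tested, 1 was apart higher and 7 lower (beside 4.53% and 5.48% of all genes, and 2 and 4 after RLE normalization), 4 had an unadjusted p under 0.05 higher and 1 lower (beside 4.2% and 4.09%), and the median log2 fold change was −0.13. With the libraries 1b left out, 7 were DEGs higher and 11 lower. Clec7a, which encodes the β-glucan receptor dectin-1, was 2021, 35.9 and 1818 CPM in αD KO against 254, 40.2 and 306 CPM in WT libraries (log2 fold change 2.90, SE 1.22). C5ar2, a second receptor for the complement fragment C5a, was 188, 27.7 and 187 CPM and 31.7, 21 and 47.5 CPM (log2 fold change 2.16, SE 0.65). In both, αD KO libraries 1a and 2 were at the WT 0h level and library 1b within or below the WT 12h range. C5ar1, the signalling C5a receptor, was 2010.3, 1578 and 2599 CPM and 5369, 1142 and 5723 CPM, with WT library 1b the lowest. Tyrobp, an adaptor of activating receptors, was 4332, 1290.2 and 4716 CPM and 2564, 1832 and 3316 CPM. Cybb and Fcer1g, the oxidase subunit gp91phox and the Fc receptor γ chain, named after their values were seen, were both apart lower. Cybb was 300.4, 301 and 227 CPM in αD KO against 949, 342 and 602 CPM in WT, and Fcer1g was 1188, 1483 and 1646 CPM and 4201, 1819 and 3626 CPM.

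Of 30 chemokine receptor and adhesion genes, 1 was apart higher and 3 lower (2 and 5 after RLE normalization, beside 4.53% and 5.48% of all genes before it), 5 and 6 had an unadjusted p under 0.05 (beside 4.2% and 4.09%), and the median was −0.12. In the fit without the libraries 1b, 9 were DEGs higher and 12 lower. Itga4, the α4 integrin, was 279, 20.2 and 196 CPM in αD KO against 11.1, 51 and 37 CPM in WT libraries (log2 fold change 2.33, SE 0.94), with αD KO library 1b inside the WT range. Spn, the sialophorin CD43, was 11.4, 29.2 and 13.1 CPM and 114, 17.6 and 206 CPM (log2 fold change −2.30, SE 0.78). Ccrl2, a chemerin-binding receptor, was 708, 1706 and 1270.0 CPM and 5428, 268 and 5598 CPM, with WT library 1b far below the rest. Selplg, the selectin ligand, was 2472, 1456 and 4447 CPM and 1670.5, 1939 and 2845 CPM and overlapped. Csf3r, the receptor of the granulocyte growth factor G-CSF, was 9390.1, 2059 and 13799.9 CPM in αD KO against 3671, 1538 and 3656 CPM in WT, a difference (log2 fold change 1.68, SE 0.69) whose sign was the opposite in αD KO library 1b alone (−0.18). Its ligand Csf3 was 1.05, 38.2 and 0.948 CPM and 447, 1.84 and 165 CPM.

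Cell cycle arrest genes gave both libraries 1b their lowest position of the 14 lists, 0.288 in αD KO and −0.0648 in WT. Cdkn1a, the inhibitor p21, was 15.3, 34.4 and 38.1 CPM in αD KO against 611, 10.9 and 1228 CPM in WT libraries (log2 fold change −4.06, SE 1.27), with WT library 1b below every αD KO library. Plk2, a stress-induced kinase, was 90.2, 252 and 197 CPM and 2530.0, 48.7 and 1782 CPM, and Btg3 was 1.1, 0.825 and 1.3 CPM and 13, 0.801 and 8.48 CPM. Btg1 and Btg2, abundant antiproliferative genes, overlapped. Btg1 was 2871, 727 and 2923 CPM in αD KO against 3055, 473 and 2754 CPM in WT, and Btg2 was 2931, 1605 and 4888 CPM and 2559, 585 and 3707 CPM. In the list of 29 genes, 2 were apart higher and 1 lower, near the shares over all genes (4.53% and 5.48%), 1 and 5 had an unadjusted p under 0.05 (beside 4.2% and 4.09%), and the median was −0.43. Without the libraries 1b, 2 were DEGs higher and 10 lower. Of 39 proliferation genes, 1 was apart higher and 1 lower, 30 had a log2 fold change above 0 (beside 9488 of all 16764 genes tested), and the median was 0.45. Hmgb2, a chromatin protein, was 710.2, 319 and 789.6 CPM in αD KO against 433, 475 and 577 CPM in WT (log2 fold change 0.42, SE 0.44), and Cenpa, the centromere histone, was 22, 4.47 and 22.6 CPM and 13.6, 9.45 and 11.3 CPM (log2 fold change 0.64, SE 0.55). With the libraries 1b left out, 3 of the proliferation genes were DEGs higher and 2 lower. Mki67 was 16.9, 11.3 and 18.8 CPM in αD KO against 72.6, 12.3 and 60.2 CPM in WT libraries (log2 fold change −1.37, SE 0.54), with both libraries 1b at the αD KO level. Ccnd3, a cyclin, was apart, at 383, 669 and 713 CPM and 1241, 908 and 1204 CPM (log2 fold change −0.73, SE 0.43).

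Among 31 survival and apoptosis genes, 1 was apart higher and 3 lower (beside 4.53% and 5.48% of all genes), 1 and 2 had an unadjusted p under 0.05, near the 4.2% and 4.09% of all genes, and the median was −0.12. In the fit without the libraries 1b, 4 of these were DEGs higher and 12 lower, and the median was −0.45. Bcl2l1, which encodes the survival protein Bcl-xL, was 30.4, 79.5 and 52.8 CPM in αD KO against 442, 92 and 325 CPM in WT libraries (log2 fold change −2.10, SE 0.61). Cycs, cytochrome c, was 17.9, 19.6 and 20.2 CPM and 141, 20.3 and 116 CPM (log2 fold change −1.98, SE 0.58). Although both genes were apart, the libraries 1b of the 2 groups lay close to each other. Birc3, an inhibitor of apoptosis, was 195, 446 and 312 CPM and 1841, 202 and 930.4 CPM, and Mcl1, a survival factor of neutrophils, was 2335, 1885 and 2793 CPM and 3207, 1592 and 2424 CPM, with overlapping groups. Bid, a death agonist, was 169, 41 and 222 CPM in αD KO against 41, 60.2 and 56.2 CPM in WT libraries (log2 fold change 1.53, SE 0.59), with αD KO library 1b at the lowest WT value.

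Interferon-stimulated genes were the list with the most members apart higher in αD KO. Of 38 genes tested, 7 were apart higher and 0 lower (beside 4.53% and 5.48% of all genes), and 13 had an unadjusted p under 0.05 higher and 0 lower. A log2 fold change above 0 was found in 34 of them, with a median of 0.79, beside 9488 of all 16764 genes tested above 0. In WT lung, 6 of 38 were DEGs that fell from 0h to 12h and 0 rose. Oasl2, an antiviral 2′-5′-oligoadenylate synthetase-like gene, was 545, 130.5 and 924 CPM in αD KO against 56.1, 102 and 57 CPM in WT, and had been 776, 407 and 372 CPM in untreated WT (log2 fold change 2.92, SE 0.73). Ifit1bl2 and Ddx60 are not members of the list and were named for their small p among all genes apart. Ifit1bl2, of the IFIT family of RNA-binding proteins, was 114, 9.83 and 127 CPM and 7.26, 4.01 and 9.11 CPM (log2 fold change 3.77, SE 0.83). Ddx60, a helicase of the antiviral response, was 139.8, 49.8 and 130.4 CPM and 39.2, 30.5 and 35.1 CPM (log2 fold change 1.75, SE 0.42). In Oasl2, Ifit1bl2 and Ddx60, αD KO library 1b was the αD KO library nearest to WT and exceeded the highest WT library, with 130.5 against 102 CPM, 9.83 against 9.11 CPM and 49.8 against 39.2 CPM. Ifit3b was 105, 19.5 and 113 CPM in αD KO against 8.88, 5.93 and 21.1 CPM in WT, with library 1b just inside the WT range (log2 fold change 2.90, SE 0.69). On the axis, 12 genes put αD KO libraries at −0.0774, 0.734 and −0.158 and WT libraries at 0.828, 1.08 and 0.93. Without the libraries 1b, 13 genes were DEGs, all higher in αD KO. After RLE normalization, 16 of the 38 were apart higher, and 0 apart lower, beside 5.51% and 5.3% of all genes.

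The promoters of Ifit1bl2 and Ddx60, which were apart, and of the list member Ifit3b, which was not, are given as examples of named genes that held the motif, for the same windows and source, with the core of the interferon response element, GAAA, any 2 bases and GAAA, or its reverse complement, TTTC, any 2 bases and TTTC, in capitals.
Ifit1bl2, chr19:34640744-34640943, minus strand: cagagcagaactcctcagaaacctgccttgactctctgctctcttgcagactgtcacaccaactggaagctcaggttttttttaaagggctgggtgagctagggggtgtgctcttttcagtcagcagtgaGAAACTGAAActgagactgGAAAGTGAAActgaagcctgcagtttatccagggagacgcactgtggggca
Ddx60, chr8:61927887-61928086, plus strand: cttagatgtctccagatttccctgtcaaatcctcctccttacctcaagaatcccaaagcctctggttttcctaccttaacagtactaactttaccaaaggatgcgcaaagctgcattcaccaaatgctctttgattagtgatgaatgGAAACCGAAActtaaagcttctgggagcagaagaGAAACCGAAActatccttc
Ifit3b, chr19:34607757-34607956, plus strand: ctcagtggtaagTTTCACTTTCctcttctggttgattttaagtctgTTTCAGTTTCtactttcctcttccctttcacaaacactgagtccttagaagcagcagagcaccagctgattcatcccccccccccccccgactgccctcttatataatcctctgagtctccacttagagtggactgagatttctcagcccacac
Over the longer stretch used for the NF-kB shares, the core was found in 18 of the 30 list genes in the RefSeq table (60%) and in 936 of 27025 genes (3.46%). For comparison, 1 of 24 cytokine list genes (4.17%) and 2 of 22 genes of the NF-kB and Toll-like receptor list (9.09%) held it. The named genes Saa3, Trim30a and Gm13073 also held it within the 200 bases before the start. Trim30a and Gm13073 were higher in αD KO libraries 1a and 2 than in every WT library. Saa3 went the other way, at 1.82, 315 and 2.8 CPM in αD KO against 1579, 169.8 and 474 CPM in WT.

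Several genes that fell in WT lung neutrophils between 0h and 12h were near the untreated WT level in αD KO libraries 1a and 2. Cd101, a surface receptor of mature neutrophils, was 547, 5.43 and 492 CPM in αD KO against 7.75, 17.2 and 8.19 CPM in WT, and had been 716, 558 and 512 CPM in untreated WT. Fgl2, a prothrombinase of the fibrinogen family, was 2260.1, 115 and 2243 CPM and 218, 127 and 179.9 CPM, and its difference (log2 fold change 3.26, SE 0.93) had the opposite sign in αD KO library 1b alone (−0.28). Slc37a2, a sugar-phosphate transporter, was apart at 57.2, 5.09 and 58.1 CPM and 3.94, 4.17 and 3.48 CPM. In Cd101 and Fgl2 αD KO library 1b was below every WT library of 12 hours, and in Slc37a2 just above them. Ighv1-69 was 9.49, 0.137 and 7.42 CPM in αD KO against 0.141, 0.32 and 0.174 CPM in WT and 22.4, 6.55 and 15.4 CPM in untreated WT, beside the B cell sums given above. Siglecf, a marker of eosinophils, was 49.5, 5.16 and 81.1 CPM, 1.97, 14.5 and 2.9 CPM and 112, 51.1 and 78.5 CPM in the same groups.

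Among granule genes of immature neutrophils, Ngp, neutrophilic granule protein, was 3583, 8045 and 5195 CPM in αD KO against 37460.4, 11781 and 28623 CPM in WT. Untreated libraries had 647, 43.3 and 582 CPM with the WT label and 9089, 62.4 and 37110.1 CPM with the αD KO label. The αD KO values at 12 hours were thus below every WT library of 12 hours and above every WT library of 0h. The 15 genes of the list summed to 16385, 31731 and 21486 CPM in αD KO against 93859, 39547 and 91506 CPM in WT, and to 7093, 3392 and 8897 CPM in untreated WT. In untreated αD KO libraries the sums were 26707, 4698 and 83100.2 CPM, so that library 1a exceeded αD KO libraries 1a and 2 of 12 hours. Of 11 genes tested, 0 were apart higher and 2 lower, and the median log2 fold change was −1.26. With the libraries 1b left out, 1 of these was a DEG higher and 8 were DEGs lower. Lcn2 belongs to this list as well as to the acute phase list. Elane, Mpo and Ctsg, of the earliest granules and named after their values were seen, had at most 0.619 CPM in any of the 6 libraries.

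Among genes apart with a mean of at least 10 CPM, those with the smallest p were described whatever their pathway. Higher in αD KO were Itgad, Gdpd3, Gm26885, Nnt, Ifit1bl2, Slc37a2, Ddx60, Oasl2, Galm and Tbc1d5. Nnt, the mitochondrial transhydrogenase that makes NADPH, was 39.6, 14.8 and 39.3 CPM in αD KO against 3.66, 7.61 and 4.76 CPM in WT libraries (log2 fold change 2.61, SE 0.55). Untreated WT libraries had 41.1, 31.3 and 41 CPM, and it was a DEG that fell with time. Galm, an aldose mutarotase, was 63.4, 9.9 and 93.4 CPM and 4.16, 9.77 and 4.41 CPM. Lower in αD KO were Nucb2, Tceal9, Cep85, Fam129b, Stom, Esd, Hopx, Pwwp2b, Rnf125 and 1700017B05Rik. Stom, the membrane protein stomatin, was 9.43, 15.3 and 15.2 CPM in αD KO against 324, 55.8 and 81 CPM in WT libraries (log2 fold change −3.26, SE 0.68). Esd, S-formylglutathione hydrolase, was 36.7, 77.8 and 63.4 CPM and 863, 162 and 1132 CPM (log2 fold change −3.29, SE 0.70). Hopx, a homeodomain-only protein, was 11.5, 8.73 and 22.4 CPM and 88.8, 45.7 and 52.5 CPM (log2 fold change −1.97, SE 0.43). In 9 of these 10 lower genes WT library 1b was the WT library nearest to αD KO, the exception being Nucb2. Of the 20 genes, all but Pwwp2b, Itgad and Gdpd3 were DEGs of WT lung between 0h and 12h.

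Genes that differed between the genotypes whatever the time and tissue were looked for in 4 settings that share no library, lung 12h, lung 0h, blood 12h and blood 0h. Itgad and Gdpd3, a lysophospholipase gene 1.38 Mb away, were apart by at least 2-fold in all 4. Gdpd3 was 160.0, 51.9 and 187 CPM in αD KO lung of 12 hours against 3.24, 8.73 and 3.6 CPM in WT libraries (log2 fold change 4.70, SE 0.73). With any gap, which was as small as 1.01-fold for Rps13 and Nucb2 in 1 of the settings, 13 genes were apart in the same direction in all 4 settings, 12 of which were tested in lung at 12 hours, 6 higher and 6 lower. Of these 12, 10 lie on chromosome 7 (83.3%), which holds 8.18% of the 16764 genes tested. Nucb2, the nucleobindin that yields nesfatin (chromosome 7, 116504369 to 116540584), was 6.01, 7.56 and 3.4 CPM and 34.4, 42.6 and 66.6 CPM in lung at 12 hours (log2 fold change −2.88, SE 0.48). Lrrc27, 11 Mb beyond Itgad, was 1.82, 2.2 and 5.13 CPM and 16.4, 10.7 and 12 CPM (log2 fold change −1.93, SE 0.50). Rps13, a ribosomal protein gene 11.8 Mb away, was 17.7, 16.3 and 15.5 CPM in αD KO against 43.4, 39 and 47.5 CPM in WT. Its copies Rps13-ps1 and Rps13-ps2 were among the 12 genes too, and reads of such near-identical copies may be split between them, so that these values are uncertain. Gm44850 and 4931431B13Rik lie within Itgad on the opposite strand, and without a stated strand of counting their reads cannot be told apart from those of Itgad.

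Whether the genotype difference in lung differed from that in blood at 12 hours was tested as an interaction over 18236 genes. edgeR called 0 (0%), with a smallest adjusted p of 0.463 and an unadjusted p under 0.05 in 1795 genes. DESeq2 called 62. Without WT lung library 1b, edgeR called 258, and without αD KO lung library 1b it called 42. For Itgad the interaction was 0.93 on the log2 scale (adjusted p = 0.881 by edgeR), with 15.7, 12.5 and 21.2 CPM in αD KO blood and 0.0583, 0.401 and 0.139 CPM in WT blood. For Gdpd3 it was 1.44 (adjusted p = 0.545 by edgeR).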

How the data were processed

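RNA of Ly6G+/CD11b+/CD45.2+ neutrophils was measured in 6 lung libraries at 12 hours after CLP, with 18 other libraries of the series as references. The authors trimmed the reads with Trimmomatic 0.36, aligned them with STAR 2.5.2b to GRCm38 (per the labels) and deposited raw read counts per gene, with uniquely mapped reads in exons counted. The strand of counting is not given in the sources used here. The members, gene lists and tests were chosen with earlier results of these data known.

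Counts were tested with edgeR 4.0.16 in R 4.3.3 (TMM factors, filterByExpr, quasi-likelihood F test, two-sided, Benjamini-Hochberg adjustment over all genes tested). DEGs were genes past both 0.05 for the adjusted p and 1 for the size of the log2 fold change. The design was the 2 groups compared, without covariates. Levels are CPM with TMM factors over all 24 libraries. Positions used log2 CPM with a prior count of 1. Gene lists (14 of pathways, 10 of cell markers and 1 of the β2 integrins, 544 genes in all) were written from general knowledge, and the erythroid gene Ahsp was not matched. Each list is described by its counts and median, without a set test.

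Genes were named by rule: the integrin genes, Gdpd3 and Lrrc27; checks of identity; DEGs; the 10 genes with the smallest p in each direction among those apart with a mean of at least 10 CPM; genes apart in all 4 settings; in each pathway list the 2 most abundant members, the 2 with the smallest p and the 2 with the largest WT change over time; the 8 largest WT changes in each direction; and the 2 most abundant members of each marker list. Alternatives were RLE factors, other filters, DESeq2 1.42.0, voom of limma 3.58.1 with quality weights, all 8 groups in the fit, summed files of sample 1, a replicate block, and leaving out libraries. Total counts of 10628463 to 29984954 set the depth, and a level of a few counts is imprecise. With 3 against 3 libraries an exact permutation test of a single value cannot go below p = 0.1, so none is given.

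The test was tried on simulated counts for αD KO against WT lung at 12 hours, over 16764 genes of which 200 changed by 4-fold. At the spread of these libraries edgeR recovered 0 of the 200 with 0 unchanged genes called, and DESeq2 recovered 55 with 51 unchanged genes called. At a dispersion of 0.05, edgeR recovered 182 with 4 unchanged genes called. Promoters were taken from RefSeq for GRCm38.p6.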

Additional observations from a re-analysis of the deposited data

Results flagged for a closer look

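Library 2 of the untreated αD KO lung neutrophils, which enters the tests of αD KO against WT at 12 hours only in the alternative fit of all 8 groups, lay at 1.03 on the WT lung time axis, above the range of the untreated WT libraries (−0.0407 to 0.108). On the list positions it lay at 1.05 for cytokines and chemokines, 1.16 for NF-kB and Toll-like receptor feedback and 0.171 for interferon-stimulated genes. What sets this library apart was not tested.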

How the results depend on the processing

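The number of DEGs between αD KO and WT, 0 with edgeR on all 6 libraries, was 207 with no filter on low counts, 141 with DESeq2, 179 with DESeq2 after the filter (an alternative chosen after seeing the data), 3519 with voom, 2 with all 8 groups in the fit (Itgad and Gdpd3) and 4686 without the libraries 1b of both groups. Leaving out 1 library gave 0 to 209, the highest without WT library 1b. It stayed 0 with RLE factors, at least 10 counts in every library, the adjusted p alone, summed files, the replicate block and αD KO library 1b alone. The interaction count of 0 was 398 with no filter and 62 with DESeq2, and 0 to 258 leaving out 1 library. In the 4 settings, 2 genes were apart, against 13 with any gap, 4 at 1.5-fold and 6 without the libraries 1b. Of 55 named genes refitted with library 1b as the only αD KO library, the log2 fold change had the opposite sign in 5, Itgax (−0.49), S100a8 (0.10), Csf3r (−0.18), Fgl2 (−0.28) and Chac1 (−0.53). The 55 were not all of the genes named here. Cd101, Clec7a and Bnip3, which are not among the 5, also had library 1b below every WT library, with αD KO libraries 1a and 2 above every one. The cause was not tested. The positions of the αD KO libraries of 12 hours moved by less than the SD of the WT positions (0.285) under every alternative run.

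The replicate numbers matched the libraries of the 2 groups only in part. Deviations from the group means correlated at −0.00502 for 1a, 0.467 for 1b and 0.562 for 2. αD KO 1b and 2 correlated best with the WT library of the same number, whereas αD KO 1a correlated best with WT 2 (0.0841). The replicate block gave 0 DEGs in the comparison and 0 in the interaction. RLE factors moved the median log2 fold change over all genes from 0.13 to 0.042. Simulated 4-fold changes were recovered by edgeR at a dispersion of 0.05 but not at the spread found here, and depth was not varied.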
